A study of Arabidopsis thaliana with 12 samples.

Results

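The cold response of 3 Arabidopsis thaliana lines without a desaturase mutation was described on 6 of the 12 arrays of a series on membrane fluidity and the perception of low temperature. The labels chose them: Col-0, Col-aeq and 35S-FAD3 each gave 1 ambient and 1 cold array. Col-0 is the Columbia wild type. Col-aeq is named in its labels for the accession and for aequorin, a calcium reporter. The 35S-FAD3 arrays carry that name in their titles, which stands for the linoleate desaturase gene FAD3 under 35S, a viral promoter that is active in most plant tissues. Their genotype label reads 35S::apoaequorin instead, with no mention of FAD3. The title was used, so each 35S-FAD3 value holds only if the title is right. Among the other 6 arrays are those of the EMS mutants fab1 and fad2 and of the triple mutant fad3/7/8, made by crosses, whose titles also name aequorin.

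Whole seedlings of growth stage 1.02 were used throughout. They had spent 4 days in a fridge after sowing and then grew on MS medium in a room at 20 °C, lit for 16 h and dark for 8 h. How cold the treatment was, how long it lasted and at what hour plants were taken was not stated in the labels used here. Each line at each temperature has 1 array, and every array is labelled as replicate 1. The 3 lines therefore served as the replicates of the cold comparison (n = 3 differences), and its p-values rest on the disagreement of lines, not on repeated growths of a line. The desaturase genes FAD2, FAD3, FAD7 and FAD8 and FAB1 had no named probe set, so neither the transgene nor the mutations could be checked on the arrays.

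Plants exposed to chilling first make transcription factors of the CBF, zinc-finger and other families, and these factors then raise COR genes, whose hydrophilic products protect membranes and chloroplasts during freezing. The clock gates this response, sugars and flavonoids accumulate, and growth slows. Cold also stiffens membranes, and desaturation of their fatty acids counteracts this, which is why desaturase mutants and overexpressors are used to study how cold is sensed.

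Signals are MAS5 values on a linear scale, and each was analysed as log2(signal + 1.6). Of the probe sets, 14140 had a mean signal of 20 or more over the 6 arrays and were tested, and 7560 of these were assigned to 1 gene (7489 genes). Control probe sets set the Col-aeq ambient array apart. Its ratio of 3' to 5' signal was 7.00 for actin (1.96 to 2.11 on the other 5 arrays) and 1.87 for GAPDH (0.970 to 1.19). Its 25S rRNA signal was 2463, that of Col-aeq cold was 849, and the other 4 arrays had 158 to 473. Most counts of calls are therefore also given from the Col-0 and 35S-FAD3 arrays alone. So are changes of single genes for the COR genes and where leaving out Col-aeq altered a call. The same was done where it moved the change of a gene that passed by over 1.5 times. For genes that passed neither way the change without Col-aeq is mostly not given, though it can differ. Markers of roots and shoots were present on every array. The summed signal of 6 root markers was 2631 to 3249, most of it from 1 gene, PYK10 (2230.5 to 2815.6). The sum of 6 nuclear photosynthesis genes was 8599 to 11112 on ambient and 7647 to 8930 on cold arrays.

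Cold changed the transcript levels of 1637 probe sets in the same direction in 3 of 3 lines (limma, adjusted p under 0.05), 11.6% of those tested. Of these, 869 rose (6.15% of those tested) and 768 fell (5.43%). The change exceeded 2-fold for 430 that rose and 289 that fell. Among named genes, 408 rose and 425 fell. The signals of ambient and cold arrays did not overlap for 1527 of the 1637, while 29.5% of all tested probe sets showed no overlap. With the Col-aeq arrays left out, 2685 probe sets passed, 19% of those tested, with 1264 higher (8.94%) and 1421 lower (10%). They included 1625 of the 1637. Of the 1060 that passed only then, 720 moved the same way in Col-aeq and 340 the opposite way.

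The size of the response was alike in Col-0 and 35S-FAD3, and Col-aeq stood apart from both. More than 2-fold, 478 probe sets were higher in the cold in Col-0 (3.38%), 447 in 35S-FAD3 (3.16%) and 1080 in Col-aeq (7.64%). The numbers lower by that margin were 381 (2.69%), 376 (2.66%) and 600 (4.24%). In Col-aeq alone, 688 were higher and 340 lower beyond 2-fold. For Col-0 alone these numbers were 81 and 122, and for 35S-FAD3 alone 76 and 139. The standard deviation of the cold change across probe sets was 0.56 in Col-0, 0.56 in 35S-FAD3 and 0.73 in Col-aeq, on the log2 scale. Across the 14140 probe sets, given as a description since probe sets of one array are not independent, the changes of Col-0 and 35S-FAD3 correlated at r = 0.752. For Col-0 with Col-aeq r was 0.610, and for Col-aeq with 35S-FAD3 it was 0.560. Each value compares single arrays, so it holds array quality as well as line.

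**Figure D1:**
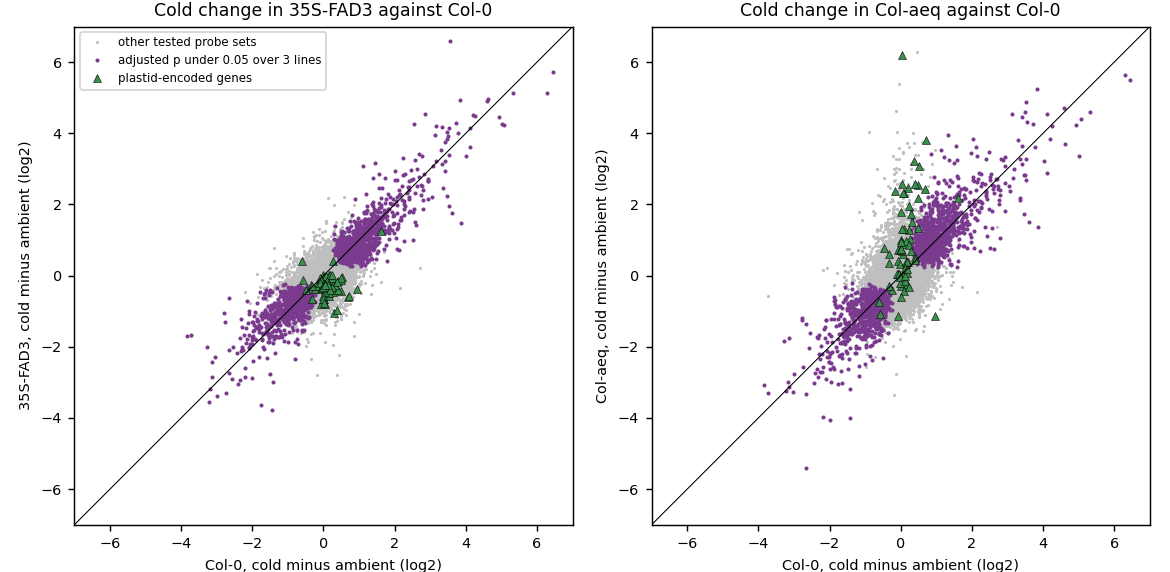
Cold minus ambient change (log2) of 14140 probe sets in 35S-FAD3 (left) and Col-aeq (right) against that in Col-0; purple points passed limma's test over the 3 lines, green triangles are 69 plastid-encoded genes, and the line marks equal change. Points lie closer to the line on the left (r = 0.752) than on the right (r = 0.610), where many lie above it, plastid-encoded genes among them.

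The genes of the cold acclimation list stood out in size. Each of the 6 tested COR genes and dehydrins rose in the 3 lines (6 of 6, against 6.15% of all tested probe sets), and 6 of 6 rose without Col-aeq. In 6 of 6 every cold signal lay above every ambient one, which held for 12.9% of all tested probe sets. Their median change was 2.74 on the log2 scale, against −0.04 for all tested named genes. It was 2.86 in Col-0, 2.48 in Col-aeq and 3.04 in 35S-FAD3. The list was written with these genes known to respond, so its direction is no independent evidence.

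COR15A encodes a small chloroplast protein that protects membranes during freezing. Its signals were 193.4 in Col-0, 277.5 in Col-aeq and 215.2 in 35S-FAD3 at ambient temperature, and 1498.5, 1710.1 and 1423.2 in the cold. Each cold signal was several times the highest ambient one. COR15A rose 6.77-fold (log2 change 2.76, SE 0.13, adjusted p = 4.79e-05), and by 2.83 without Col-aeq. Its neighbour in function COR15B went from 183.1, 349.3 and 113.3 to 1262.2, 1417.8 and 1184.8. This was a rise of 2.72 (SE 0.236), smallest in Col-aeq (2.02), where the ambient signal was highest, and largest in 35S-FAD3 (3.37), where it was lowest. Without Col-aeq the COR15B rise was 3.07.

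LTI30 and COR47 encode dehydrins, which bind membranes and proteins as cells lose water. LTI30 signals were 435.4, 486.9 and 436.9 at ambient temperature in Col-0, Col-aeq and 35S-FAD3, and 2322.1, 2486.9 and 1962.8 in the cold. LTI30 rose 4.95-fold (log2 change 2.31, SE 0.117, adjusted p = 6.66e-05), and its changes in the 3 lines lay between 2.16 and 2.41. COR47 had ambient signals of 838, 1053.9 and 573.5 and reached 2256.6, 2505.5 and 2096.2, a rise of 1.51 (SE 0.141). Without Col-aeq LTI30 rose by 2.29 and COR47 by 1.65. For these dehydrins every cold signal lay above every ambient signal.

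COR27 and AT4G33980, listed beside it, had the largest rises of the COR list, from low levels. COR27 is a cold-regulated gene that also acts in the clock. Its signals were 11.7 in Col-0, 19.9 in Col-aeq and 1.4 in 35S-FAD3 at ambient temperature, and 155.5, 430.1 and 288.3 in the cold. The mean rise was 4.83 (SE 0.493, adjusted p = 0.00115). AT4G33980 went from 4.4, 33.8 and 7.4 to 146.8, 461.5 and 278.3, a rise of 4.43 (SE 0.243). Without Col-aeq the rises were 5.08 and 4.79. For both, Col-aeq had the highest signal of the 3 lines at each temperature. Ambient signals were higher still in fad3/7/8 (31.1 and 51.3) and lower in fab1 and fad2 (2.9 to 10.8). Most of these ambient signals lay under 20, the filter level, so the sizes of the rises are uncertain.

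Early regulators were covered by few named probe sets. CBF1, CBF2 and CBF3 had none. STZ, a zinc-finger repressor that acts early in cold, salt and light stress, was the single tested member of its list. Its signals were 36.8, 46.5 and 34.3 at ambient temperature and 709.6, 691.4 and 817.4 in the cold. STZ rose 18.3-fold (log2 change 4.19, SE 0.168, adjusted p = 3.12e-05), and by 4.36 without Col-aeq. GI, a clock protein that links day length to flowering, was the single tested member of the clock list. It went from 202.3, 190.5 and 233.8 to 471.8, 679.2 and 486, a rise of 1.36 (SE 0.177, adjusted p = 0.00305). The GI change was 1.22 in Col-0 and 1.05 in 35S-FAD3 but 1.83 in Col-aeq, and the mean without Col-aeq was 1.13.

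The 12 largest rises were taken from 144 named genes that passed and exceeded 2-fold in both Col-0 and 35S-FAD3. Besides COR27, AT4G33980 and STZ they were AT4G36010, AT2G16890, AT1G51090, AT1G11210, UGT84A1, AT1G48100, AT5G62360, AT3G55580 and AT1G70420. Genes given here by locus number have no symbol in the gene table used. AT4G36010 had the most even rise of these 12. Its signals were 18, 27.1 and 15.7 at ambient temperature and 469.6, 757 and 513.1 in the cold, and the changes in Col-0, Col-aeq and 35S-FAD3 were 4.59, 4.72 and 4.89 (mean 4.74, SE 0.146, 26.6-fold).

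AT1G51090 rose by 4.55 (SE 0.172), with cold signals of 603.2, 782.4 and 673.1. AT1G48100 rose by 3.55 (SE 0.156), from 61, 40.5 and 45.2 to 613.8, 590.4 and 542.7. In these genes the cold arrays agreed closely and the ambient arrays were low throughout. Of the 3 lines, AT5G62360, AT1G11210 and AT1G70420 had their highest ambient signal in Col-aeq (102, 46.2 and 80) and their smallest change there (2.89, 3.36 and 2.83). Their changes in Col-0 were 4.12, 5.01 and 3.50, and in 35S-FAD3 3.63, 4.27 and 3.93. In fad3/7/8 their ambient signals were also high (198.5, 41.8 and 109), with changes of 1.97, 3.84 and 2.59. Ambient signals in fab1 and fad2 were lower (22.6 to 59.2), with changes of 3.24 to 4.00. AT2G16890 (1.8 to 4.4 at ambient temperature) and AT3G55580 (6.5 to 16.8) were under the filter level without cold, and their rises of 4.57 (SE 0.274) and 3.46 (SE 0.254) are uncertain in size.

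Of 6580 tested probe sets with no single named gene, 801 passed, which is near the share of all tested probe sets that did (11.6%). The rises of 3 of them were larger than that of COR27, and these 3 were picked after their values were seen. The largest went from 17.6, 37.7 and 34.8 in Col-0, Col-aeq and 35S-FAD3 to 1670, 1767.4 and 1904.7, a rise of 5.88 (SE 0.199).

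**Figure D2:**
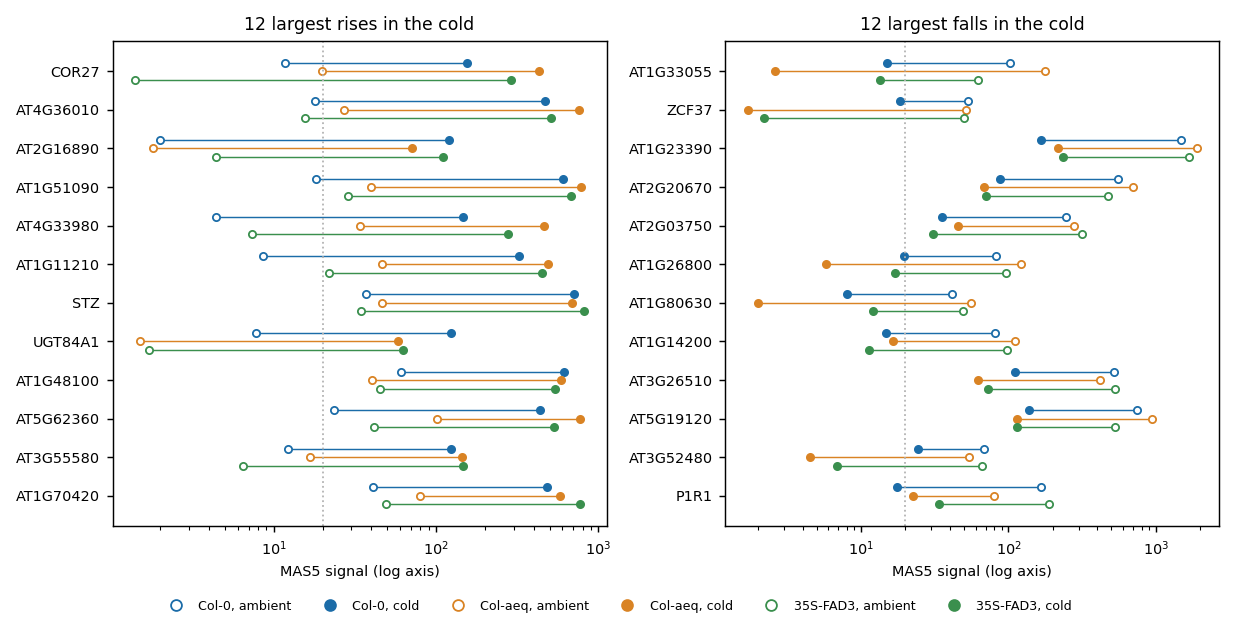
MAS5 signals (log axis) of the 12 named genes with the largest rises (left) and the 12 with the largest falls (right); open points are ambient arrays, filled points cold arrays, colours are lines and the dotted line marks the filter level of 20. In each of these 24 genes, the filled and open points of the 3 lines do not overlap.

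Of 4 tested members of the phenylpropanoid and flavonoid list, 3 rose and 1 fell, where 6.15% and 5.43% of all tested probe sets did. The same numbers passed without Col-aeq, against 8.94% and 10%. UGT78D2, which adds glucose to flavonols and anthocyanins, had signals of 199, 165.2 and 176.8 at ambient temperature and 1070, 741.5 and 829.2 in the cold. UGT78D2 rose by 2.26 on the log2 scale (SE 0.132, adjusted p = 9.82e-05). DFR, which makes the precursors of anthocyanins, went from 34.6, 19 and 29.7 to 102.7, 66.6 and 63.6, a rise of 1.44 (SE 0.188). UF3GT, an anthocyanin glycosyltransferase, rose by 0.84 (SE 0.182), but without Col-0 (adjusted p = 0.196) or 35S-FAD3 (adjusted p = 0.0509) it no longer passed.

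The member that fell was AT1G23390. Its signals were 1473.3, 1902.8 and 1676.8 at ambient temperature and 165.9, 215.8 and 233.2 in the cold. AT1G23390 fell by 3.04 on the log2 scale (SE 0.13, adjusted p = 3.32e-05). Its changes were −3.14, −3.13 and −2.84 in Col-0, Col-aeq and 35S-FAD3, the most even of the 12 largest falls.

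UDP-glycosyltransferases attach sugars to flavonoids, hormones and other small molecules. This family and 7 others were listed from gene symbols after values had been seen. Of 31 tested family members, 7 rose and 2 fell, against 6.15% and 5.43% of all tested probe sets. Without Col-aeq 14 rose and 4 fell, against 8.94% and 10%. The numbers that fell are near those shares. UGT84A1, which forms glucose esters of hydroxycinnamic acids, was at 7.8, 1.5 and 1.7 at ambient temperature and 122.9, 58.2 and 62.9 in the cold, a 17.1-fold rise (SE 0.269 on the log2 scale) whose size rests on very low ambient signals. UGT84A3, of the same subfamily, had signals of 184.6, 378.6 and 166.7 at ambient temperature and 384.1, 347.9 and 336 in the cold. Its change was 1.05 in Col-0 and 1.00 in 35S-FAD3 but −0.12 in Col-aeq, so it passed only without Col-aeq (1.03, adjusted p = 0.000192). UGT72B3 rose by 1.32 (SE 0.142), UGT71B1 by 0.95 (SE 0.14), UGT73C1 by 1.05 (SE 0.213) and UGT78D1, a flavonol rhamnosyltransferase, by 0.86 (SE 0.165). UGT85A5 fell by 1.28 (SE 0.299) and by 0.79 without Col-aeq, with −2.25 in Col-aeq against −0.87 and −0.71 in Col-0 and 35S-FAD3. UGT88A1 fell by 0.49 (SE 0.125). Without Col-0, UGT73C1, UGT78D1 and UGT88A1 did not pass (adjusted p 0.0631, 0.147 and 0.35), and UGT73C1 and UGT88A1 did not without 35S-FAD3 (0.0716 and 0.117).

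SWEET proteins let sucrose or other sugars pass cell or vacuole membranes down their gradient. Of 9 tested sugar transporters on the list, 3 rose and 1 fell (6.15% and 5.43% of all tested probe sets did), 5 did not pass, and the median was 0.49. Without Col-aeq 5 rose and 1 fell (8.94% and 10% of all). SWEET15 went from 88.9, 63 and 153.9 to 258.1, 186.9 and 248.1, a rise of 1.25 (SE 0.2, adjusted p = 0.00771). The smallest change, 0.68, was in 35S-FAD3, which had the highest ambient signal. TMT2, a vacuolar monosaccharide importer, rose by 0.92 (SE 0.23) and by 0.58 without Col-aeq, with 1.62 in Col-aeq against 0.74 and 0.42. SWEET2, a vacuolar glucose transporter, rose by 0.63 (SE 0.14). SWEET16, also of the vacuole, fell by 0.79 (SE 0.15), from 123.8, 138.2 and 145 to 82.5, 70.5 and 79.6.

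SWEET13, outside that list, rose by 1.11 (SE 0.15), from 59.9, 56.3 and 63.9 to 148.9, 122.9 and 123.3. SWEET11 (0.57, adjusted p = 0.00606) and SWEET1 (0.70, adjusted p = 0.0118) passed only without Col-aeq. SWEET1 signals in 35S-FAD3 were 438.3 and 556.6, above every Col-0 and Col-aeq signal (119.3 to 248.2). Without Col-0, SWEET2, SWEET16 and TMT2 did not pass (adjusted p 0.127, 0.0569 and 0.093), nor did SWEET2 and SWEET16 without 35S-FAD3 (0.173 and 0.068).

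The largest falls were taken from 88 named genes by the same rule. They were AT1G33055, ZCF37, AT1G23390, AT2G20670, AT2G03750, AT1G26800, AT1G80630, AT1G14200, AT3G26510, AT5G19120, AT3G52480 and P1R1. AT2G03750 went from 246.2, 278.8 and 316.5 to 35.2, 45.6 and 30.8, a fall of 2.87 on the log2 scale (SE 0.178). P1R1 had signals of 166, 79.3 and 189.1 at ambient temperature and 17.6, 22.6 and 34 in the cold, a change of −2.43 (SE 0.253), smallest in Col-aeq (−1.74).

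Low cold signals in Col-aeq set part of the order of these falls. AT1G33055 was at 102.7, 177.2 and 62.1 at ambient temperature and 15, 2.6 and 13.4 in the cold. Its mean change was −3.38 (SE 0.56), with −5.41 in Col-aeq, and −2.37 without Col-aeq (adjusted p = 1.97e-05). Such a low cold signal of AT1G33055 was not particular to Col-aeq. It was 3.4 in fab1, 4.6 in fad2 and 2.9 in fad3/7/8, with changes of −4.42, −3.61 and −4.16. AT1G26800 and AT1G80630 also had their largest fall in Col-aeq, with −4.06 and −3.98, and mean changes of −2.19 and −2.03 without it. ZCF37 had signals of 1.7 and 2.2 in the cold in Col-aeq and 35S-FAD3 and 18.5 in Col-0. In Col-0, Col-aeq and 35S-FAD3 the cold signals of these 4 genes all lay under 20, so the sizes of their falls are uncertain.

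Most tested genes on a list of those known to rise in darkness or when sugar runs out fell. The list was chosen with earlier results of these data known, so its direction is no independent evidence. Of the 6 tested genes on that list, 5 fell (5.43% of all tested probe sets did) and 1 did not pass; 5 fell without Col-aeq. The list median was −1.74, and it was −1.64 in Col-0, −2.03 in Col-aeq and −1.39 in 35S-FAD3. AT2G20670 had signals of 555.3, 698.4 and 471 at ambient temperature and 87.2, 68.2 and 69.9 in the cold, a 7.46-fold fall (log2 change −2.90, SE 0.174). AT5G19120 went from 745.8, 948.8 and 527.5 to 136.8, 114.8 and 114.5 (−2.55, SE 0.183). AT3G26510 went from 517, 416 and 529.8 to 110.7, 62.4 and 72.6 (−2.58, SE 0.167). In these genes each cold signal was well below the lowest ambient signal. AT2G20670, AT5G19120 and AT3G26510 are also among the largest falls named above.

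Leucine breakdown genes stand on the same list. IVD, isovaleryl-CoA dehydrogenase, went from 494.2, 523.3 and 254.8 to 232.6, 239.6 and 217.2. It fell by 0.81 (SE 0.198, adjusted p = 0.0385), and did not pass without Col-0 (adjusted p = 0.213). MCCA, a subunit of methylcrotonyl-CoA carboxylase in the same pathway, was lower in the cold in Col-0 (281.4 to 157.1) and Col-aeq (292.6 to 112.9) but not in 35S-FAD3 (133.7 to 165.7). Its mean change was −0.63 (SE 0.287, adjusted p = 0.21), and it passed without 35S-FAD3 (−1.10, adjusted p = 0.0132). For both genes the ambient signal in 35S-FAD3 was about that of the cold arrays of the other lines. Small changes were not particular to 35S-FAD3. In fab1, fad2 and fad3/7/8 MCCA changed by −0.76, −0.18 and −0.03, and IVD by −1.15, −0.08 and −0.01. The test of 35S-FAD3 against the control lines did not pass for IVD (difference 0.87, SE 0.429) or MCCA (1.40), with an adjusted p of 0.901 for each.

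ATG8 proteins are joined to lipid in the membrane of the autophagosome, and plants carry a family of them. Of the 9 tested ATG8 genes, 5 fell and 0 rose, where 5.43% of all tested probe sets fell. Without Col-aeq 5 fell (10% of all). In 7 of 9 the cold signals lay below the ambient ones with no overlap (16.6% of all tested probe sets did). The median change was −0.69, with −0.50 in Col-0, −1.03 in Col-aeq and −0.58 in 35S-FAD3. ATG8E went from 289.6, 290.8 and 298.7 to 91.3, 94.7 and 150.4, a 2.66-fold fall (log2 change −1.41, SE 0.175, adjusted p = 0.00258). Its ambient signals were nearly equal, and its cold signal was highest in 35S-FAD3. ATG8F went from 983.9, 1446.5 and 1216.8 to 446, 629.4 and 618.6 (−1.10, SE 0.119).

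ATG8H (−0.80), ATG8I (AT3G15580, −0.69) and ATG8C (−0.68) also fell, and none of these 3 passed without Col-0 (adjusted p 0.0913 to 0.174), nor ATG8I without 35S-FAD3 (0.0516). ATG8G stood at −0.84 (adjusted p = 0.0737), with −1.59 in Col-aeq against −0.32 and −0.60. The larger family median in Col-aeq rests on the array with raised 3' to 5' ratios, whose part in it was not tested. Without Col-aeq the median was −0.52.

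**Figure D3:**
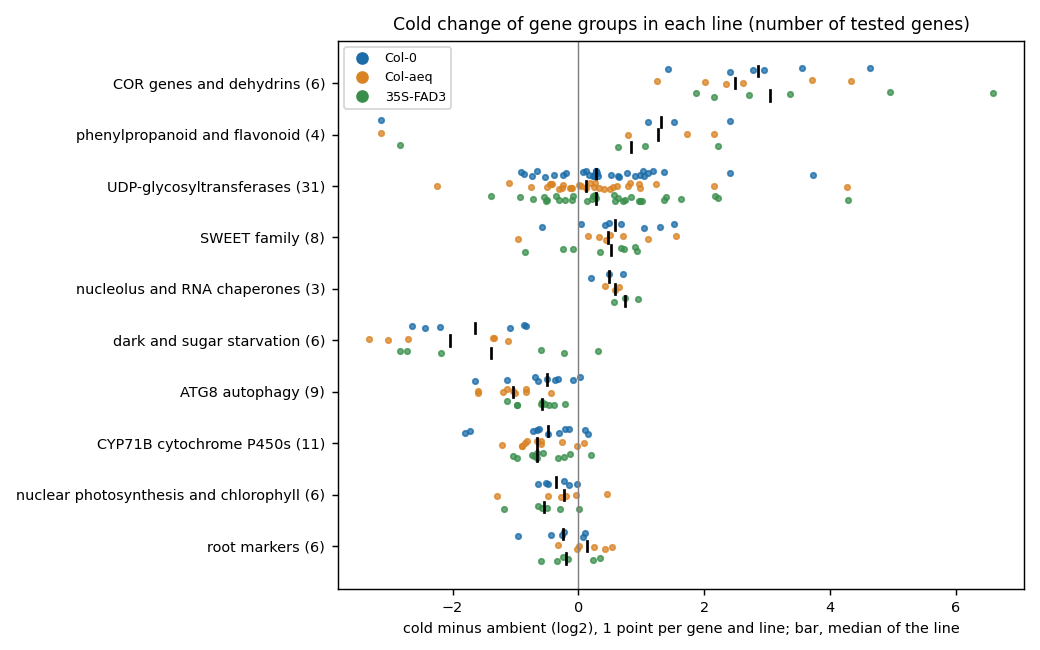
Cold minus ambient change (log2) of the tested genes of 10 groups, with 1 point per gene and line, colours for the lines and black bars for the median in each line; the number of genes is given in parentheses. COR genes lie to the right of 0 in each line (medians 2.48 to 3.04), and dark and sugar starvation genes and ATG8 genes mostly to the left.

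EXPA8, an expansin that loosens cell walls, went from 547, 413.6 and 681.1 to 54.8, 113.5 and 167.3. EXPA8 fell 5.22-fold (log2 change −2.38, SE 0.268, adjusted p = 0.00168), most in Col-0 (−3.28). It was the 1 of 3 tested growth genes that passed (5.43% of all tested probe sets fell). Without Col-aeq 2 of the 3 fell (10% of all). The expansin gene EXPA4 passed only without Col-aeq (−0.52, adjusted p = 0.0278), and the homeobox gene HAT2 stood at 0.04. Of 17 expansins and xyloglucan enzymes, 3 rose, 2 fell and 12 did not pass, against 6.15% and 5.43% of all tested probe sets that rose and fell. Without Col-aeq 3 rose and 4 fell (8.94% and 10% of all). XTH16 fell by 0.93 (SE 0.17), while XTH19 rose by 1.01 (SE 0.204), EXLA2 by 1.59 (SE 0.347) and XTH32 by 0.82 (SE 0.199), or 0.54 without Col-aeq. None of these 4 passed without Col-0 (adjusted p 0.0829 to 0.122). EXLA2 rested on ambient signals of 7.2, 26.6 and 13.4.

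Of 6 tested genes that serve photosynthesis from the nucleus, some in making chlorophyll, 2 fell (5.43% of all tested probe sets did) and 0 rose, with a median of −0.31. Without Col-aeq 4 fell (10% of all). NdhS, a subunit of the plastid NDH complex, went from 746.6, 1703.6 and 1170.3 to 479.5, 695.5 and 517.5 (−1.03, SE 0.154, adjusted p = 0.00562). HEME2, of tetrapyrrole synthesis, changed by −0.48, −0.49 and −0.50 in the 3 lines (mean −0.49, SE 0.124), and it did not pass without Col-0 (adjusted p = 0.273) or 35S-FAD3 (0.198). HEME1 (−0.55, adjusted p = 0.00946) and PORB, a protochlorophyllide reductase (−0.44, adjusted p = 0.0397), passed only without Col-aeq, and PORB stood at 0.45 in Col-aeq. RCA, Rubisco activase, stood at −0.07 (SE 0.0927). In whole seedlings, fewer cells of a type and less RNA per cell cannot be told apart.

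Root markers gave 0 calls among 6 tested genes by limma with the 3 lines, and 0 at an unadjusted p under 0.05. Their median change was −0.06, with 2 on average higher and 4 lower. Without Col-aeq 1 fell (10% of all tested probe sets did), AT4G26010 (−0.78, adjusted p = 0.00509). Of 4 reference genes used for normalization elsewhere, 0 passed (2 at an unadjusted p under 0.05), and PEX4 stood at 0.13 (SE 0.137). Of the lipid list 0 of 2 tested genes passed, and 0 at an unadjusted p under 0.05. FATB (0.29, SE 0.134) and FATA (0.33, SE 0.208), which release fatty acids for export from the plastid, did not pass. Both heat shock genes tested, FKBP65 (−0.17) and AT3G09440 (0.13), and the glutathione reductase GR1 (0.37), alone on the reactive oxygen list, did not pass either. Of 3 defence genes 1 rose (6.15% of all tested probe sets did), and 1 rose without Col-aeq (8.94% of all). It was AT2G38240 (0.71, SE 0.158), which did not pass without Col-0 (adjusted p = 0.195) or 35S-FAD3 (0.0596). The defensin PDF1.2 stood at −0.74 (adjusted p = 0.0761) and passed without 35S-FAD3 (−0.98, adjusted p = 0.0326). Of the nucleolar list, 2 of 3 rose (6.15% of all tested probe sets did), and 2 rose without Col-aeq (8.94% of all). PES, a pescadillo protein of ribosome assembly, rose by 0.77 (SE 0.138) and the RNA helicase gene PRH75 by 0.55 (SE 0.14), but neither passed without Col-0 (adjusted p 0.0941 and 0.227) or 35S-FAD3 (0.0781 and 0.244). The lists for compatible solutes, light stress, abscisic acid, calcium and touch, and flowering had 0 tested members.

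Further characterised genes were picked after their values were seen, as examples of regulators and enzymes that passed. Among those that rose, GID1B, a gibberellin receptor, went from 52.3, 17.1 and 32.5 to 139.8, 118.7 and 113.9 (1.95, SE 0.246). SMZ, a floral repressor of the AP2 family, went from 55.6, 20.5 and 52.9 to 174.1, 147.4 and 134.3 (1.90, SE 0.266). CCT2, an enzyme of phosphatidylcholine synthesis, went from 55.4, 37 and 53 to 167.9, 189.2 and 164.7 (1.83, SE 0.186). In these 3 genes the lowest ambient signal was in Col-aeq, and the changes without Col-aeq were 1.58, 1.47 and 1.59.

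Of 10 U-box and ATL ubiquitin ligases, 2 rose and 2 fell (6.15% and 5.43% of all tested probe sets did). Without Col-aeq 2 rose and 2 fell (8.94% and 10% of all). PUB19 rose 5.96-fold, from 38, 34.7 and 46.8 to 264.3, 195.7 and 279.4 (2.58, SE 0.146, adjusted p = 9.63e-05), and ATL5 rose by 1.37 (SE 0.22). PUB26 went from 46.4, 60.2 and 55.4 to 15, 22.3 and 14.1, a fall of 1.59 on the log2 scale (SE 0.2). ATL8 fell by 0.98 (SE 0.195). Without Col-0 its change was −0.92 and did not pass (adjusted p = 0.109). Of 8 tau glutathione transferases, which join glutathione to reactive compounds, 1 rose and 1 fell (6.15% and 5.43% of all tested probe sets did). Without Col-aeq 2 rose and 2 fell (8.94% and 10% of all). GSTU28 rose by 0.99 (SE 0.234) and GSTU16 fell by 0.62 (SE 0.138). Neither passed without Col-0 (adjusted p 0.184 and 0.204) or 35S-FAD3 (0.102 and 0.064).

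Of the genes picked after their values were seen, HYH, a bZIP factor of light signalling, rose by 1.26 (SE 0.163), the transcription factor gene WRKY6 by 1.61 (SE 0.209) and SERPIN1, a protease inhibitor, by 1.53 (SE 0.137). LEA4-5, a protective late embryogenesis abundant protein, rose by 1.47 (SE 0.234) and by 1.81 without Col-aeq. NRPA1 and NRPA2, the large subunits of RNA polymerase I, rose by 1.24 (SE 0.253) and 0.88 (SE 0.196). Of all tested probe sets 6.15% rose. For the other 8 tested polymerase subunit genes 0 passed (2 at an unadjusted p under 0.05). Without Col-aeq 2 of the 10 subunit genes rose (8.94% of all tested probe sets did). NRPA2 did not pass without Col-0 (adjusted p = 0.0584), and for both genes ambient and cold signals overlapped across lines.

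Among those that fell, DEWAX (AT5G61590), a repressor of wax synthesis, went from 362.1, 620.1 and 420.9 to 85.3, 141.1 and 110.7 (−2.03, SE 0.137, adjusted p = 0.000174). AKINBETA1, a subunit of the SnRK1 energy-sensing kinase, went from 222, 226.1 and 215.4 to 78.8, 82.4 and 96.9 (−1.35, SE 0.148). EXO, a brassinosteroid-induced growth gene, fell 2.83-fold (SE 0.166 on the log2 scale). SIM, an inhibitor of the cell cycle, fell by 1.40 (SE 0.154) and BRH1, a brassinosteroid-responsive RING gene, by 1.00 (SE 0.136). Ambient signals of AKINBETA1 and BRH1 were nearly equal in the 3 lines, and so were their changes.

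CYP71B genes encode cytochrome P450 enzymes. Of 11 tested, 3 fell and 0 rose, with a median of −0.59, where 5.43% of all tested probe sets fell. Without Col-aeq 4 fell (10% of all). In 7 of 11 cold signals lay below ambient ones with no overlap (16.6% of all). CYP71B26 went from 367.4, 680 and 450.7 to 263.1, 363.1 and 283.6 (−0.68, SE 0.141), CYP71B28 from 98.7, 113.2 and 116.5 to 59.5, 74.2 and 71.2 (−0.67, SE 0.141). CYP71B24 fell 2.30-fold (SE 0.223 on the log2 scale). None of the 3 passed without Col-0 (adjusted p 0.0853 to 0.17), nor CYP71B26 and CYP71B28 without 35S-FAD3 (0.08 and 0.108).

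Genes encoded in the plastid genome separated Col-aeq from the other lines. Of 69 tested, 1 rose and 0 fell over the 3 lines, where 6.15% and 5.43% of all tested probe sets did. Without Col-aeq 2 rose and 2 fell (8.94% and 10% of all). The median change of the 69 genes was 0.09 in Col-0, 0.69 in Col-aeq and −0.27 in 35S-FAD3. It was −0.15 in fab1, −0.24 in fad2 and −0.11 in fad3/7/8. The change was above 0 for 49 of the 69 in Col-0, 54 in Col-aeq and 8 in 35S-FAD3. It was over 2-fold higher for 1, 24 and 1, against 3.38%, 7.64% and 3.16% of all tested probe sets. The median signal of the 69 genes was 892.2 and 942.0 in Col-0, 1053.5 and 855.4 in 35S-FAD3 and 420.2 and 929.2 in Col-aeq, ambient first. The Col-aeq ambient array thus had the low value, while Col-aeq cold lay among the other arrays.

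The largest such change was in psaA, which encodes a core protein of photosystem I. Its signal went from 25.9 to 2024.5 in Col-aeq, from 1830.9 to 1888.7 in Col-0 and from 2353 to 1771.9 in 35S-FAD3. The changes were 6.20, 0.04 and −0.41, and the mean of 1.95 (SE 1.1) did not pass (adjusted p = 0.307). psbD, of the photosystem II core, went from 98.8 to 1403.1 in Col-aeq, from 817.8 to 1336.6 in Col-0 and from 1200.3 to 807.2 in 35S-FAD3. In 51 of the 69 genes (73.9%) the Col-aeq ambient signal lay below those of all 5 other ambient arrays, against 29.5% of the 7489 named genes. The Col-aeq cold signal lay below the 5 other cold arrays in 2 of the 69. The high 3' to 5' ratios and rRNA signal of the same array move with this result, and their part in it was not tested.

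**Figure D4:**
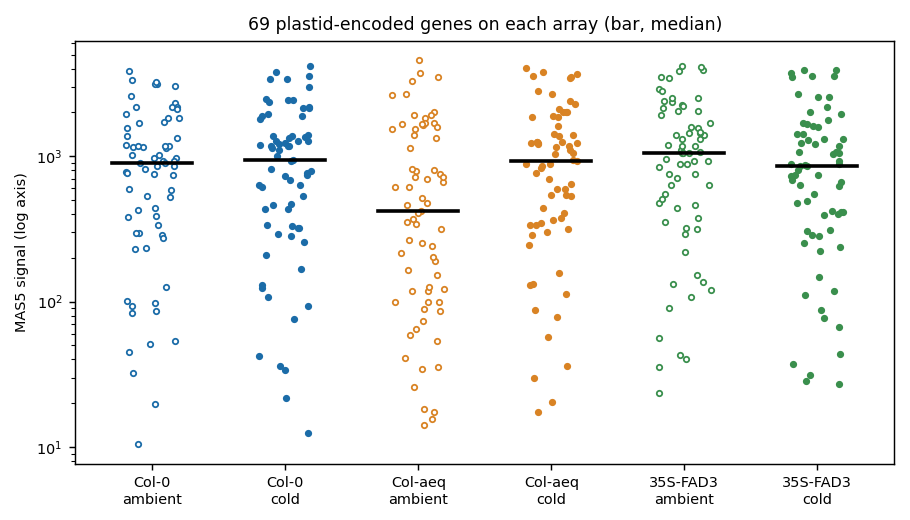
MAS5 signals (log axis) of 69 plastid-encoded genes on each of the 6 arrays, 1 point per gene, with open points for ambient and filled points for cold arrays and a bar at the median. The median on the Col-aeq ambient array is 420.2, against 855.4 to 1053.5 on the other 5.

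The plastid gene that rose over the 3 lines was rps16, which encodes a ribosomal protein. It went from 83.1, 53.2 and 119.7 in Col-0, Col-aeq and 35S-FAD3 to 258.5, 245.6 and 285.6, a 3.20-fold rise (log2 change 1.68, SE 0.195, adjusted p = 0.00194). It held without Col-aeq (1.43, adjusted p = 4.17e-05). rbcL, the large subunit of Rubisco, passed only without Col-aeq (0.34, adjusted p = 0.0406), as did petL, of the cytochrome b6f complex, in the other direction (−0.49, adjusted p = 0.0129). The Col-aeq changes of these genes were 0.71 and 0.35.

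By the gap between its change and the nearer of the other lines, Col-aeq was highest above both in psaA, AT4G17470, AT1G54310, AT2G02680 and psbD. In 5 of these 5 the Col-aeq ambient signal lay below the 5 other ambient arrays, as in 29.5% of the 7489 named genes. In 2 of them the Col-aeq cold signal lay within the range of the 5 other cold arrays. Col-aeq was farthest below both in AT1G33055, AT1G80630, AT2G38600, AT1G26800 and AT5G63630. In 4 of these 5 its ambient signal lay above the others, as in 1910 of the 7489 named genes. Its cold signal lay within the range of the other cold arrays in 1 of them. AT2G38600 was at 18.1, 27.1 and 17 at ambient temperature and 26.7, 11.2 and 25.2 in the cold, and AT5G63630 at 24.1, 49.1 and 22.4, then 25.7, 15.7 and 23.9. These 10 genes were chosen by the gap, so no test is given for it. A change is cold minus ambient, so that choice itself favours an outlying Col-aeq signal. The shares of all named genes are therefore no fair comparison for these 10.

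The last question was whether the cold change of 35S-FAD3 differed from that of Col-0 and Col-aeq. By limma on the within-line differences, with the 3 mutant lines as a further class, 0 of 14193 probe sets passed (0%), with 696 at an unadjusted p under 0.05. The lowest adjusted p was 0.901. The single overexpressor line has no spread of its own and was assumed to vary like the lines within the other classes. Without Col-0, 189 passed, 23 higher and 166 lower in 35S-FAD3. That comparison sets 35S-FAD3 against Col-aeq alone, whose ambient array stood apart.

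Genes were also ranked by the gap between 35S-FAD3 and the nearer control line. COR27 had the largest gap above the control lines, with a cold change of 6.59 in 35S-FAD3 against 3.56 and 4.33, at an ambient signal of 1.4. The test of that difference gave 2.65 (SE 0.673, adjusted p = 0.901). In fab1, fad2 and fad3/7/8 COR27 changed by 5.66, 5.02 and 3.71. AT1G73120 fell by 1.28 over the 3 lines (SE 0.266, adjusted p = 0.0213), with −1.60 in Col-0, −1.84 in Col-aeq and −0.40 in 35S-FAD3, and did not pass without Col-0 (adjusted p = 0.0857). Its changes in fab1, fad2 and fad3/7/8 were −2.21, −0.15 and −0.94. The signals of AT5G65880 were 151.3, 134 and 62.9 at ambient temperature and 157.4, 92.9 and 152 in the cold. In fab1, fad2 and fad3/7/8 its ambient signals were 71.4, 202.3 and 76.5, and its changes 0.89, −0.08 and 0.36. MCCA and AT5G66180 had the same order of Col-0, Col-aeq and 35S-FAD3, with changes of 0.31 and 0.40 in 35S-FAD3 and −1.36 to −0.64 in the controls. AT5G66180 changed by −0.07, −0.56 and −0.53 in fab1, fad2 and fad3/7/8.

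In the other direction were atpI, psbT, AT5G06265, psbB and psbD, 4 of them plastid-encoded. psbB, of photosystem II, went from 635.2 to 415.3 in 35S-FAD3, from 288.7 to 464.6 in Col-0 and from 98.9 to 544 in Col-aeq. Its changes in fab1, fad2 and fad3/7/8 were −0.63, −0.98 and 0.15. psbT, also of photosystem II, went from 462.6 to 224.5 in 35S-FAD3 and from 231.9 to 282.4 in Col-0. For psbB and psbT the ambient signal in 35S-FAD3 was the highest of the 3 lines. Falls were not particular to 35S-FAD3. In fab1, fad2 and fad3/7/8 atpI changed by −0.18, −0.17 and −0.19 and psbD by −0.35, −0.54 and −0.11. There psbT changed by −0.09, −0.61 and 0.04 and AT5G06265 by −0.79, 0.05 and −0.93. AT5G06265 had signals of 138.6 and 44.1 in 35S-FAD3, 87.2 and 70.3 in Col-0 and 110.7 and 125.7 in Col-aeq, and it passed only without Col-aeq (−0.96, adjusted p = 0.0173). The lowest p-values for this difference were those of AT4G24610 (−1.82, SE 0.358), psbC (−0.84, SE 0.171) and AT1G10340 (−2.03, SE 0.431), each at an adjusted p of 0.901. psbC, a photosystem II antenna protein, changed by −0.42 in 35S-FAD3, 0.41 in Col-0 and 0.44 in Col-aeq, and by −0.35 to −0.15 in the mutant lines.

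Against the 3 mutant lines, the cold change of these 3 lines gave 0 calls among 14193 probe sets (0%; limma, 516 at an unadjusted p under 0.05, lowest adjusted p 0.957). The lowest p-values were those of AT5G37130 (1.17, SE 0.296), AT1G67870 (0.73, SE 0.185) and OTP81, an organelle RNA processing factor (−1.27, SE 0.33), each at an adjusted p of 0.957. For COR15A the difference was 0.49 (SE 0.314), with changes of 2.88 in fab1, 1.41 in fad2 and 2.52 in fad3/7/8. With 3 lines in each class, a p that misses the threshold does not show that the classes respond alike.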

How the data were processed

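Each ATH1 array was deposited as MAS5 signals, a linear intensity for each of 22810 probe sets. The submitters' processing notes list MAS5 and GCOS, without versions or settings. Arrays have no read depth; the number of arrays limits the precision. The authors' values had a trimmed mean of 100.0 on every array (2% off each end) and were not scaled further. The 64 control probe sets were left out of tests. The platform table paired 13513 probe sets with 1 gene and 503 with several and left 8794 unlisted; 13436 matched RefSeq (TAIR10.1) and 77 did not.

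The offset of 1.6 was the 10th percentile over the 6 arrays. limma 3.58.1 in R 4.3.3 fitted the log2 values with line and temperature (2 residual degrees of freedom) and an intensity trend. Low signals understate fold changes. Differences between classes used the within-line changes (4 and 3 residual degrees of freedom). Adjusted p-values are Benjamini-Hochberg over all tested probe sets, with 0.05 as the threshold, and SE is limma's moderated one. Scripts were tested on simulated data. Tables were made in Python 3.11.15 with pandas 2.3.3 and figures with matplotlib 3.10.9.

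Members, 21 gene lists (288 genes, 66 tested) and 8 lists added later were chosen with earlier results of these data known. Named were the 12 largest rises and falls passing beyond 2-fold in Col-0 and 35S-FAD3, 4 members per list with the lowest adjusted p, 5 genes each way with the largest line gaps (for 35S-FAD3, with a signal of 50 or more at 1 temperature at least in each line) and 3 per class comparison with the lowest p; others were picked after their values were seen. A gene with several probe sets was represented by the one with the higher mean signal. Alternatives were other scalings, offsets, filters and blocks, no trend, and each line left out.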

Additional observations from a re-analysis of the deposited data

Results flagged for a closer look

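For 2 of the genes chosen to be named in the text the cold change had one sign in Col-0, Col-aeq and 35S-FAD3 and the opposite sign in fab1, fad2 and fad3/7/8, as it had for 109 of the 7489 tested genes. AT5G37130, chosen for its low p in that comparison, went from 13.9, 18.6 and 13.6 to 29.3, 25.2 and 23.9 in the first 3 lines, and from 23.7, 35.4 and 20.1 to 17.3, 25.1 and 14 in the mutant lines, a difference between classes of 1.17 on the log2 scale (SE 0.296). Most of these signals lay near the filter level. The root marker AT5G17820 changed by 0.11, 0.01 and 0.35 in the first 3 lines and by −0.32, −0.25 and −0.80 in the mutant lines, a difference of 0.62 (SE 0.205). Neither passed limma's test of the difference (adjusted p = 0.957 for each).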

How the results depend on the processing

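The count of 1637 probe sets for cold moved by over 1.5 times under 2 settings of the fit: 1051 passed with no filter on low signals, where 22746 probe sets were tested, and 2601 with all 12 arrays and a cold effect per class, which has more residual degrees of freedom. Leaving out each line in turn gave 702 to 2685 (702 without Col-0, 1143 without 35S-FAD3, 2685 without Col-aeq). With no line block, that is with the pairing of arrays by line dropped, 1107 passed, 1094 of them among the 1637. With the Col-aeq ambient array alone left out and no block, 1136 passed. No paired analysis by replicate number was possible because every array is labelled replicate 1. Other scalings, offsets, a mean signal of 50 or more, no trend and plastid genes left out (added after values were seen) gave 1384 to 1820. For 35S-FAD3 against the control lines, leaving out a line gave 0 to 189, with the 189 without Col-0. Against the mutant lines 0 passed under every setting run. Of 144 named probe sets, 92 passed; 30 of these did not without Col-0, 14 without 35S-FAD3, 0 without Col-aeq, 24 without the filter, 22 with no line block, 23 with no block and the Col-aeq ambient array left out, 13 with no trend, 3 with median centring and 1 with all 12 arrays, and 0 changed sign in any setting where they were called. The causes were not tested. Signals under 20 give no reliable size, and 1 array per line and temperature leaves the spread within a line unknown.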
